A study of Danio rerio with 8 samples.

Results

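The accessible chromatin of wild-type (WT) zebrafish embryos was compared between the 8-somite stage and 36 hours post fertilization (hpf). The members were all peaks of the WT list at 8 somites and of the WT list at 36 hpf, 181328 of the 337777 peaks in the series. They were matched by an overlap of at least 1 bp. A peak of the 8-somite list without a partner at 36 hpf was called closed, a peak of the 36 hpf list without a partner at 8 somites was called opened, and the others were called kept.

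ATAC-seq uses the Tn5 transposase, which cuts and tags DNA where nucleosomes and other proteins leave it exposed. The resulting peaks of cut sites mark promoters, enhancers and other regulatory elements. Promoters of broadly used genes tend to stay accessible through development, whereas enhancers often open and close with the cell types that use them. At 8 somites the embryo has formed its germ layers and is laying down the body axis, and at 36 hpf it is a pharyngula with a beating heart, pigment, differentiating neurons, muscle and skin.

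Each stage was represented by 2 libraries of WT embryos, from which the authors made a single peak list. The embryos came from the AB and Tübingen strains and their yolk was removed. The 8-somite libraries were each made from a single embryo of *tp63*+/- parents, genotyped afterwards, while the 36 hpf libraries came from small pools of WT embryos, and how the embryos of these pools were told from heterozygotes was not given in the sources used here. Lists of *tp63*-/- embryos at the same stages, which carry a small deletion in the gene of the ectodermal transcription factor p63, were used for comparison only. The amount of starting material thus changed together with the stage, and the effects of these cannot be told apart. The libraries of the study ran on different sequencing instruments, and which library ran on which was not given. A peak list does not give the sequencing depth behind it, and single replicates were not analysed here, so the differences carry no estimate of variation among embryos. Intervals are 95% Wilson intervals, which cover counting error only.

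Peaks had been filtered by the irreproducible discovery rate (IDR), which keeps those that rank alike in both replicates. A closed or opened peak is therefore one that missed this filter at the other stage, and its signal may lie just under the threshold. In whole embryos, fewer cells of a type and less accessibility per cell cannot be told apart. Genes, promoters, tissue markers and sequences were not analysed here, because no annotation or genome of the GRCz10 assembly was used, so regions are given by their GRCz10 coordinates and the label of the tissue was not checked against marker genes. To compare strength between stages, each peak was given a percentile rank within its own list by its −log10 p-value, with 100 for the strongest peak and 0 for the weakest.

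More of the accessible regions closed than opened, and both sets consisted mainly of weak, narrow peaks. At 8 somites 37330 of 96625 peaks closed, or 38.6% (38.3–38.9), and at 36 hpf 25214 of 84703 peaks had opened, or 29.8% (29.5–30.1). The closed peaks covered 11.9 Mb and the opened peaks 7.56 Mb, against 22.5 Mb covered by the kept peaks at 8 somites. The 8-somite list was the longer of the pair, and cutting both lists to the same number of strongest peaks brought the shares to 33.7% closed and 33.2% opened.

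Closed peaks had a median percentile rank of 28.1, and 78.0% of them lay in the weaker part of their list, compared with 66.0 and 32.4% for kept peaks. Their median width was 295 bp, against 348 bp for kept peaks, and their median fold enrichment over background was 6.71 against 8.89. Opened peaks showed the same features in their own list, with a median percentile rank of 25.7 and a median width of 273 bp, against 62.3 and 342 bp for kept peaks. The median fold enrichment was 5.15 for opened and 6.79 for kept peaks at 36 hpf. Agreement between the replicates was weaker too: 31.3% of closed peaks had an IDR of 0.01 or less, compared with 75.04% of kept peaks, and the shares at 36 hpf were 34.6% of opened and 75.9% of kept peaks.

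The share without a counterpart rose with every step down the ranking. Among the 9663 peaks of the strongest decile at 8 somites, 158 closed (1.64%), the fifth decile gave 36.0%, and the weakest decile gave 74.5%. At 36 hpf the strongest decile held 95 opened peaks of 8471 (1.12%), the fifth decile gave 24.3% and the weakest 64.1%. Narrow peaks changed most often as well. In both lists narrow peaks were also weaker, and the median percentile rank rose from the narrowest to the widest peaks. The shares by width were not weighted for rank, so a separate effect of width was not tested. Of peaks up to 200 bp wide, 57.4% closed and 58.0% opened, while 7.73% of the 207 8-somite peaks over 1000 bp closed and 6.61% of the 242 such peaks at 36 hpf had opened.

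**Figure D1:**
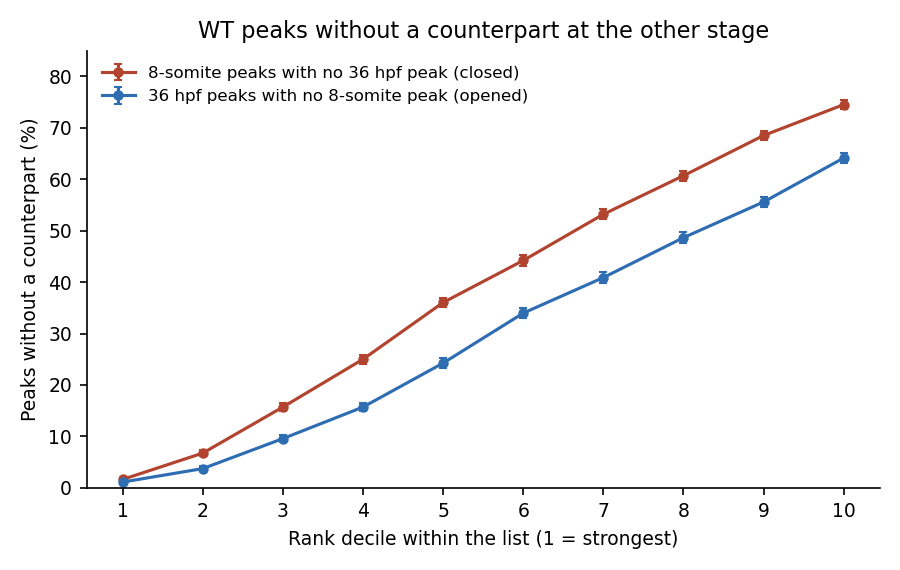
Share of WT peaks without an overlapping peak at the other stage (y axis, %) against rank decile within the list (x axis, 1 is the strongest), with 95% Wilson intervals. Closed 8-somite peaks climb from 1.64% to 74.5% and opened 36 hpf peaks from 1.12% to 64.1%, with the closed curve above the opened curve in every decile. The 8-somite list was the longer, and with lists of equal length the total shares were 33.7% closed and 33.2% opened.

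Most changed peaks were not near misses in position. Only 1.61% of closed peaks had a 36 hpf peak within 100 bp and 11.4% within 1 kb, while 68.8% had one within 10 kb. For opened peaks the shares with an 8-somite peak nearby were 3.58%, 17.0% and 77.2%. At the other end of the matching rule, only 12 kept 8-somite peaks and 15 kept 36 hpf peaks overlapped their partner by 10 bp or less, and 11 closed and 41 opened peaks were separated from the nearest such peak by at most 10 bp. Such borderline cases were rare beside the totals, and the median kept peak was covered over 93.7% of its length at 8 somites and 95.4% at 36 hpf.

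Loss was also more frequent where peaks were sparse. Peaks with no other peak of their list within 50 kb closed in 51.9% of cases (694 peaks), against 30.2% of peaks with more than 20 such neighbours (880 peaks). Isolated peaks were weaker, and after weighting every group to the same rank deciles the shares were 48.4% and 32.4%. Opened peaks followed the same order with a smaller span, 41.3% and 27.2%, or 34.9% and 29.6% after weighting.

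The very strongest changed peaks lay lower in the 8-somite ranking than in the 36 hpf ranking. All of the 100 strongest 8-somite peaks had a partner at 36 hpf, whereas 2 of the 100 strongest 36 hpf peaks had none at 8 somites. Among the 1000 strongest, the numbers without a partner were 1 at 8 somites and 5 at 36 hpf. Among the 10000 strongest the order was the other way round, with 171 at 8 somites and 117 at 36 hpf. On assembled chromosomes 32339 closed and 20449 opened peaks had no WT peak of the other stage within 1 kb, and the 5 highest-ranked of each are described next.

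The strongest opened peak of this kind was chr2:31731865-31732485, a region of 621 bp that held rank 5 of the whole 36 hpf list with a fold enrichment of 15.3. The nearest WT 8-somite peak was 14676 bp away. The *tp63*-/- lists, from other embryos, had a peak at this place at 36 hpf (rank 83) and none at 8 somites. The same order of presence was found at chr22:30060481-30060798, which held rank 80 with a fold enrichment of 20.9 and had a mutant peak at 36 hpf only (rank 1080). It was also found at chr16:48736308-48736727 (rank 612, fold enrichment 15.5), whose mutant peak at 36 hpf held rank 10141. The remaining strong opened peaks were less uniform between genotypes. The peak chr4:42410437-42410815 (rank 317, fold enrichment 13.4) overlapped mutant peaks at both stages, of rank 24118 at 8 somites and 670 at 36 hpf. The peak chr3:60196493-60196862 (rank 799, fold enrichment 13.6) overlapped no mutant peak.

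The 5 strongest closed peaks on assembled chromosomes with no WT 36 hpf peak within 1 kb had ranks of 1312 to 1617. At chr5:53689215-53689611 (rank 1559, fold enrichment 16.7) the nearest WT peak at 36 hpf was 26124 bp away, and the mutant lists held a peak at 8 somites (rank 5730) and none at 36 hpf. The mutant lists held a peak at both stages for the other 4. At chr13:43301437-43301876 (rank 1471, fold enrichment 17.6) the mutant rank went from 4511 to 72404, and at chr5:3586040-3586394 (rank 1617, fold enrichment 18.1) from 2070 to 29053. At chr15:43315282-43315639 (rank 1312, fold enrichment 12.7) it went from 876 to 12321. These 3 regions were thus listed at both stages in the mutant, at a lower rank at 36 hpf. As mutant percentile ranks, the falls were from 94.4 to 5.42, from 97.4 to 62.1 and from 98.9 to 83.9. The fall on chromosome 15 was thus the smallest. At chr4:76363014-76363291 (rank 1517, fold enrichment 16.5) the mutant ranks were close to each other, 2557 and 3531, while the nearest WT peak at 36 hpf was 37202 bp away.

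The mutant lists served as a further set of embryos at both stages, in which peaks played no part in defining the WT classes. Their libraries were made as in WT, from single embryos at 8 somites and from pools at 36 hpf. Stage and starting material therefore cannot be told apart in the mutant lists either, nor in what they share with WT. Of closed WT peaks, 11511 (30.8%, 30.4–31.3) had a mutant peak at 8 somites and none at 36 hpf, against 9.94% of kept peaks and 18% of all WT 8-somite peaks. The opposite order, a mutant peak at 36 hpf only, was found for 7.47% of closed peaks. A further 11.8% had mutant peaks at both stages and 49.9% had none at either, so the largest group of closed peaks was seen in the WT 8-somite list alone.

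Opened WT peaks gave similar shares. A mutant peak at 36 hpf only was present for 8334 of them (33.1%, 32.5–33.6), against 11.4% of kept peaks and 17.8% of all WT 36 hpf peaks. A mutant peak at 8 somites only was present for 7.33%, both for 11.9% and neither for 47.7%. For closed and opened peaks alike, a mutant peak at one stage only was thus more often at the stage at which WT had its peak.

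The comparison was also made among peaks that had a mutant peak at their own stage. Because weak peaks are missed more often, it was made both over all ranks and within rank deciles. Over all ranks, 72.3% of such closed peaks (11511 of 15913) had no mutant peak at 36 hpf, against 12.1% of kept peaks (5893 of 48593). These totals are not matched for rank. In the strongest decile the shares were 41.5% (61 of 147) and 0.970%, in the fifth decile 69.8% and 18.1%, and in the weakest decile 83.6% and 35.0%. The distance between closed and kept peaks was present in every decile. Of opened peaks with a mutant peak at 36 hpf, 73.5% (8334 of 11344) had none at 8 somites over all ranks, against 13.7% of kept peaks (6772 of 49554). The shares ran from 59.2% (42 of 71) and 0.669% in the strongest decile to 84.4% and 35.9% in the weakest.

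Kept peaks differed little in position and extent. The overlap rule that defines them itself limits how far apart their summits can lie. Of the 59295 kept 8-somite peaks, 57029 (96.2%) formed a pair with exactly 1 peak at 36 hpf. In these pairs the median width was 347 bp at 8 somites and 342 bp at 36 hpf, and 46.5% were wider at 36 hpf. The summits, the points of highest signal, lay a median of 17 bp apart and within 50 bp in 79.2% of pairs. Splits and fusions were few, with 902 8-somite peaks overlapping 2 or more peaks at 36 hpf and 711 36 hpf peaks overlapping 2 or more at 8 somites.

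The percentile ranks of kept peaks were not set by the matching rule. The median absolute shift in percentile rank was 12.5 points, 43.3% of kept peaks moved by at most 10 points, and the 5th and 95th percentiles of the shift were −44.0 and 37.5. Across the 59295 kept peaks the ranks at both stages had a Spearman rho of 0.662 and a Pearson r of 0.610. The points are regions of the same pair of lists and not replicates. The median shift was −0.92 points, and a shift of 0 is not a neutral value here, since kept peaks make up a larger part of the 36 hpf list than of the 8-somite list. A fall of more than 40 points was found for 3873 kept peaks (6.53%) and a rise of more than 40 points for 2486 (4.19%).

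The spread of the shifts depended on the starting rank. The strongest decile at 8 somites had a median shift of −1.78 points, with 10th and 90th percentiles of −20.4 and 2.19, and could hardly rise. The third decile had a median of −7.40, the sixth 2.32, and the weakest decile 26.9 among the 2461 of its peaks that were kept. Weak peaks that fell further left the list, so the rise in the lower deciles is that of the peaks that stayed in it. The strongest 20% at 8 somites stayed in the strongest 20% at 36 hpf in 64.6% of cases, were absent in 4.20% and reached the weakest 20% in 1.26%. The weakest 20% were absent at 36 hpf in 71.5% of cases, and 171 of them (0.885%) reached the strongest 20%. Seen from 36 hpf, 73.6% of the strongest 20% came from the strongest 20% at 8 somites, 2.43% had no peak there, and 84 (0.496%) came from the weakest 20%. Among the 100 strongest peaks 53 were common to both stages, and among the 1000 strongest 598 were.

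**Figure D2:**
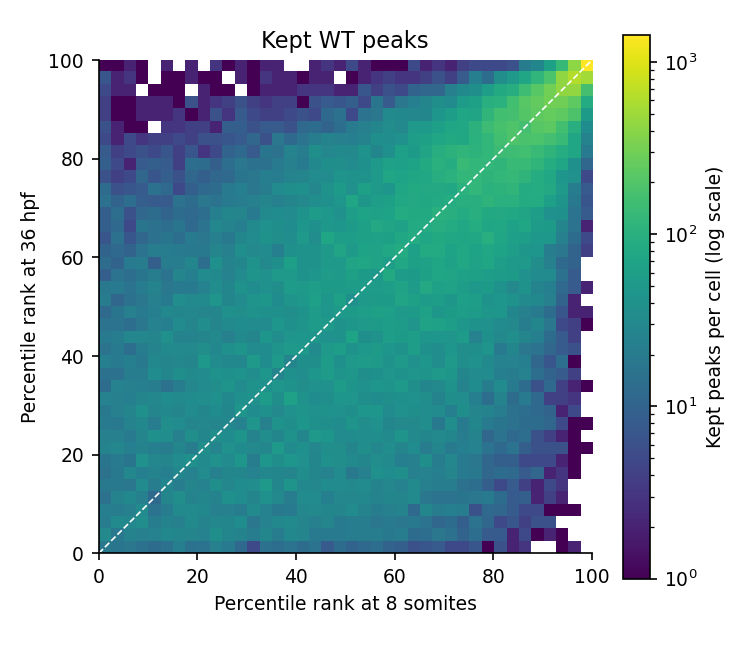
Percentile rank of kept WT peaks at 8 somites (x axis) and at 36 hpf (y axis), 100 being the strongest, with the number of peaks per cell on a logarithmic colour scale and equal ranks on the dashed line. Peaks gather along the line at high ranks and spread at low ranks, with a median absolute shift of 12.5 points.

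Large shifts found in WT mostly went the same way in the mutant lists. Over the 42700 kept peaks with mutant peaks at both stages, the WT shift and the mutant shift had a Pearson r of 0.528, given as a description since regions of the same 4 lists are not independent points. Peaks that fell by more than 60 points in WT had a median mutant shift of −35.4, and 92.5% of these 469 peaks fell in the mutant. Peaks that rose by more than 60 points had a median mutant shift of 31.1, and 88.4% of these 249 peaks rose. The median over all kept peaks was 0.367. The same was found at a fixed starting rank. Of the strongest 20% at 8 somites, those that fell by more than 40 points in WT had a median mutant shift of −32.2 (933 peaks), and those that moved by at most 10 points had a median of 0.316 (12560 peaks). Closed peaks that had mutant peaks at both stages showed a median mutant shift of −17.0 (4402 peaks), and opened peaks one of 12.7 (3010 peaks).

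The largest falls and rises among peaks with a single partner show the range. The peak chr10:34448026-34448332 went from a percentile rank of 97.1 to 0.93, while its mutant shift was −60.2 points. The peak chr19:38335915-38336278 went from 90.6 to 2.57, with a mutant shift of −77.8, and on the same chromosome chr19:35226240-35226612 went from 93.1 to 2.39 and had a mutant peak at 8 somites only. A mutant peak at 8 somites only was also found at chr12:5757450-5757820, which went from 92.9 to 4.90. The exception among the 5 was chr22:7779810-7780318, which went from 95.2 to 0.50 in WT and shifted by −10.8 in the mutant. It lies in a segment of chromosome 22 that is described further on.

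Rises reached a similar size. The peak chr7:14082570-14083014 went from 5.53 to 93.8 with a mutant shift of 81.9 points, and chr18:38426554-38426803 went from 7.03 to 95.3 with a mutant shift of 70.7. At chr7:30386907-30387394 the WT rank went from 5.53 to 93.8 and the mutant had a peak at 36 hpf only. The remaining rises were less alike in the mutant. The peak chr4:67665079-67665258, which went from 2.87 to 92.6, had a mutant peak at 36 hpf only, at percentile 32.8, and the peak with the largest rise, chr6:25161341-25161489 (2.83 to 96.0), overlapped no mutant peak.

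Closed peaks were grouped along the chromosomes. After a closed peak, the next 8-somite peak on the chromosome was closed in 43.6% of cases, and after a kept peak in 35.5%, a difference of 8.10 percentage points. Weighted to the same rank deciles the difference was 5.18 points. For opened peaks the shares were 32.5% and 28.5%, a difference of 3.98 points, or 2.69 points at the same ranks. Both differences were smaller for opened than for closed peaks.

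The grouping was strongest between peaks close to each other. Where the gap to the next peak was under 500 bp, it was closed in 47.2% of cases after a closed peak and in 21.2% after a kept peak (6682 pairs). At this spacing a single peak of the other stage can cover both neighbours, which was so in 716 pairs, or 19.3% of the pairs in which both were kept. Without these pairs the share after a kept peak was 25.03%. At gaps of 2 to 5 kb the difference was 5.56 points, at 20 to 50 kb 5.82 points, and at 50 kb or more 4.17 points. At the same ranks these differences were smaller, 2.56, 3.52 and 1.33 points. For opened peaks the shares under 500 bp were 39.3% and 23.7%, and 28.9% after a kept peak without the pairs that lay on 1 peak. At larger gaps the difference for opened peaks varied between 1.12 and 5.63 points, and at 2 to 5 kb it was 1.61 points, or −0.35 at the same ranks.

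**Figure D3:**
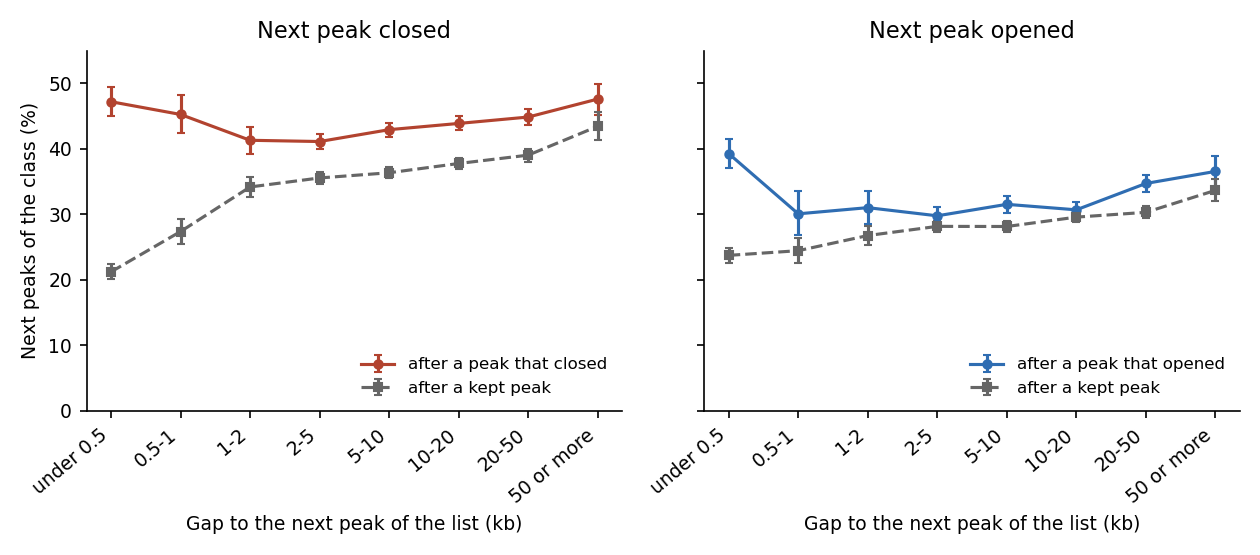
Share of next peaks that closed (left) or opened (right), in % on the y axis, by the gap to the next peak of the same list (x axis, kb), after a changed peak (solid) and after a kept peak (dashed), with 95% Wilson intervals. Under 500 bp the closed shares are 47.2% and 21.2% and the opened shares 39.3% and 23.7%. At larger gaps the curves lie closer together.

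With more peaks between them the difference was smaller, without falling at every step for opened peaks. For closed peaks the difference was 5.39 points for the second next peak, 3.84 for the fifth, 2.13 for the tenth, 1.33 for the fiftieth, 0.16 for the hundredth and −0.65 for the peak 200 places further on. For opened peaks it was 2.71, 2.43, 1.03, 0.57, 0.29 and 0.90 points, the last close to that of the tenth next peak. Over all pairs of peaks at a given distance, the difference for closed peaks was 18.7 points up to 2 kb, 3.96 at 20 to 50 kb, 1.10 at 200 to 500 kb and 0.252 at 2 to 5 Mb. The values for opened peaks at the same distances were 10.5, 2.51, 0.434 and 0.285 points.

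Peaks with a changed peak of the other class nearby changed less often than those without. Such peaks also tend to lie where peaks are dense, and shares were lower there. The values below were not weighted for density, so the separate effect of the other class was not tested. An 8-somite peak with an opened peak within 1 kb closed in 25.7% of cases, and one without in 39.3%, or 29.3% and 39.1% at the same ranks. Within 20 kb the shares were 35.8% and 42.1%. For 36 hpf peaks the shares that had opened were 26.5% with a closed peak within 1 kb and 29.95% without, or 26.9% and 29.9% at the same ranks. Within 20 kb they were 28.8% and 31.8%.

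The median shift of kept peaks differed little with the class of their changed neighbours. Kept peaks with a closed and no opened peak within 50 kb had a median shift of −1.71 points (7930 peaks), and those with an opened and no closed peak one of 0.44 (3755 peaks). With neither, it was −0.10. These differences were small beside the median absolute shift of 12.5 points, which describes the spread of single peaks. The shares that rose were 43.8% with closed only, 52.0% with opened only and 49.5% with neither. Closer in, the shares with closed only and opened only were 44.8% and 48.3% within 10 kb. They were 46.8% and 46.4% within 5 kb, and 47.0% and 50.5% within 2 kb. The shifts of consecutive kept peaks had a Pearson r of 0.101 up to 1 kb apart (5337 pairs), 0.0043 at 1 to 5 kb and 0.0486 at 5 to 20 kb.

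Shares also varied between chromosomes. The closed share ran from 32.6% on chromosome 22 (824 of 2525) to 44.0% on chromosome 15 (1784 of 4051), and the opened share from 26.1% on chromosome 15 to 36.1% on chromosome 4. Chromosome 15 thus stood at the top for closed and at the bottom for opened peaks. The long arm of chromosome 4, which is rich in repeats and poor in most protein-coding genes, was high for both. Beyond 30 Mb on this chromosome 56.3% of 734 peaks closed and 42.0% of 562 peaks had opened, against 39.1% and 34.4% before that point. At the same ranks the arm still gave 52.4% and 41.5%.

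In windows of 1 Mb with at least 40 peaks, the closed share had a median of 38.0% (1248 windows, 5th to 95th percentile 25.1% to 54.0%). Its standard deviation of 8.96 points exceeded the 5.74 points that counting error alone would give. For opened peaks the median was 29.4% (1191 windows, 18.5% to 41.9%), with a standard deviation of 7.16 points against 5.72. Windows next to each other had a Pearson r of 0.207 for closed and 0.169 for opened shares, and the closed and opened shares of the same window had an r of 0.128 (1182 windows). In windows of 100 kb with at least 10 peaks of each list this r was 0.344 (1957 windows). Both shares of a window are computed from largely the same kept peaks, which links them by construction. These r values therefore do not show whether closing and opening favoured the same windows.

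Windows with high shares in WT tended to have high shares in the mutant lists, more closely for closed than for opened peaks. The closed shares in WT and mutant had a Pearson r of 0.702 over 1142 windows, and the opened shares one of 0.513 over 1079 windows, with assembly features and peak density common to both. The shares were not weighted for the rank of the peaks in a window. Of the 115 windows with the highest closed share in WT (median 52.6%), 111 lay above the mutant median of 34.5%, with a mutant median of 47.6% among them. Of the 114 windows with the lowest share, 8 did. For opened peaks, 92 of the 108 highest and 15 of the 107 lowest windows lay above the mutant median of 32.7%.

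**Figure D4:**
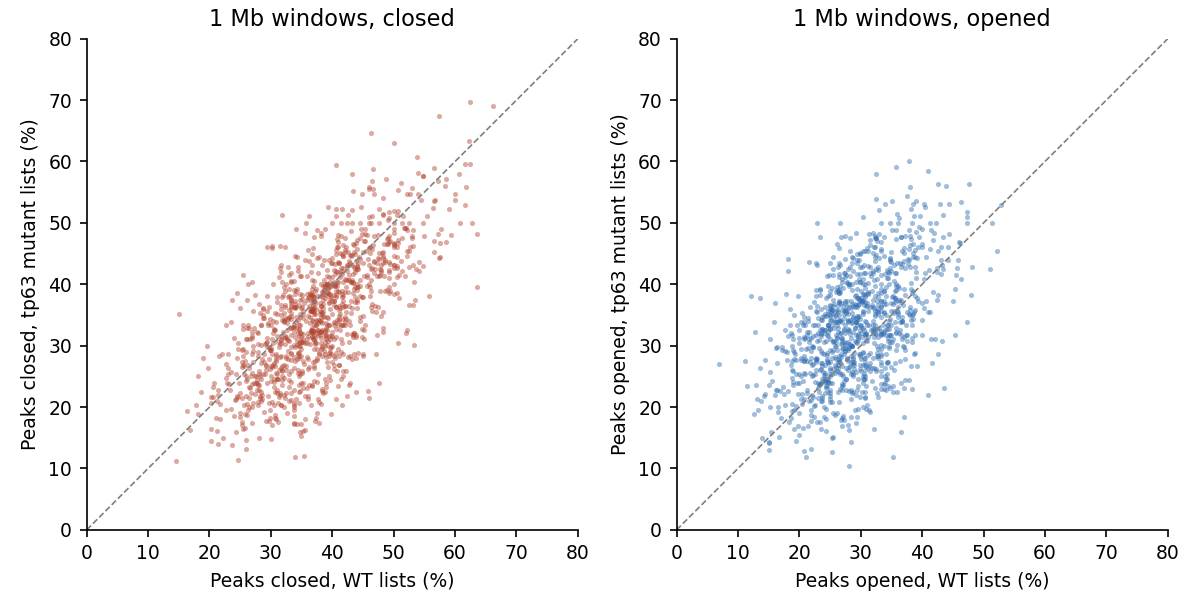
Share of closed (left) and opened (right) peaks per 1 Mb window in the WT lists (x axis, %) and in the *tp63*-/- lists (y axis, %), each point a window with at least 40 peaks in both genotypes, with equal shares on the dashed line. The points follow the line loosely, with r of 0.702 over 1142 windows for closed and 0.513 over 1079 windows for opened peaks.

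The window with the highest closed share was chr18:33000001-34000000, where 35 of 42 8-somite peaks closed (83.3%) and 12 of 19 did in the mutant (63.2%). It was followed by chr15:13000001-14000000 with 38 of 50 (76.0%, mutant 18 of 26) and chr14:12000001-13000000 with 34 of 49 (69.4%, mutant 19 of 27). In the first of these windows 15 peaks were listed at 36 hpf, of which 8 had opened, so fewer peaks were listed at 36 hpf than at 8 somites. The lowest closed shares were found in chr22:16000001-17000000 with 11 of 76 (14.5%), chr8:34000001-35000000 with 9 of 60 (15.0%) and chr25:29000001-30000000 with 11 of 67 (16.4%). The mutant shares there were 11.3%, 35.2% and 19.3%, and that of the chromosome 8 window was near the mutant median of 34.5%. These windows were picked for their low WT shares, and a difference between genotypes was not tested. The chromosome 8 window also gained peaks, with 44 of its 95 36 hpf peaks opened. The median percentile ranks of the 8-somite peaks were 19.6, 38.9 and 28.4 in the 3 highest windows. In the 3 lowest they were 51.5, 46.1 and 56.7. Closed shares were higher among weak peaks, and the window shares were not weighted for rank.

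The highest opened shares were found in chr22:7000001-8000000 with 22 of 40 peaks (55%), chr12:7000001-8000000 with 28 of 53 (52.8%) and chr16:11000001-12000000 with 36 of 69 (52.2%). On chromosomes 12 and 16 the mutant shares were 52.9% and 45.5%, and on chromosome 22 the mutant share was 34.6% (9 of 26). The lowest were chr5:31000001-32000000 with 5 of 72 (6.94%), chr7:57000001-58000000 with 5 of 45 (11.1%) and chr19:36000001-37000000 with 5 of 44 (11.4%). The mutant shares in these windows were higher, 27.0%, 27.5% and 20.6%, but below the mutant median of 32.7%. The windows were picked for their low WT shares, and a difference between genotypes was not tested. On chromosome 19 this window also lost 42 of its 82 8-somite peaks (51.2%).

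Unbroken runs of changed peaks were also counted. Their number and length depend on the share of the class in its list, which was 38.6% for closed and 29.8% for opened peaks. Kept peaks made up 61.4% of the 8-somite list and 70.2% of the 36 hpf list. Whether the runs exceed what these shares alone would give was not tested. Closed peaks formed 875 runs of 5 or more consecutive peaks, which held 5418 peaks (14.9% of those on assembled chromosomes), and 59 runs of 10 or more, of which 9 lay on chromosome 4 beyond 30 Mb. Opened peaks formed 226 runs of 5 or more with 1328 peaks (5.39%) and 8 of 10 or more, none of them on that arm. The longest runs held 18 closed and 13 opened peaks, while the longest runs of kept peaks held 26 at 8 somites and 31 at 36 hpf.

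The longest closed runs had median ranks below the middle of the list but held some strong peaks on chromosome 4. On the long arm of chromosome 4, chr4:44319340-45677336 held 18 closed peaks over 1358 kb with a median percentile rank of 32.0 (range 1.40 to 97.7). It also held 3 WT peaks at 36 hpf. Inside an unbroken run, any WT peak of the other stage lacks a partner by definition, so these all count as opened. In the same arm chr4:41658405-42733119 held 18 closed peaks over 1075 kb with a median of 34.1 (range 4.48 to 93.8), and 6 opened peaks between them, among them the strong opened peak of rank 317 named above. The third run, chr19:44724241-44928381, held 17 closed peaks in 204 kb with a median of 29.8 (range 6.84 to 58.7). Of these 17, 7 overlapped a mutant peak at 8 somites and 1 overlapped a mutant peak at 36 hpf. For the runs on chromosome 4 the counts were 10 and 4, and 12 and 3. Of all 37330 closed peaks, 15913 overlapped a mutant peak at 8 somites. A mutant peak at 36 hpf only was present for 7.47% of all closed peaks, and mutant peaks at both stages for 11.8%. Whether the runs differ from these shares was not tested.

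Of the 3 longest opened runs, those on chromosomes 15 and 7 spanned less sequence and had higher median ranks than the one on chromosome 12. Within 31.9 kb, chr15:14298267-14330187 held 13 opened peaks and no WT 8-somite peak. Their percentile ranks ran from 20.2 to 90.3 with a median of 71.7, their fold enrichment from 3.61 to 9.54, and their median width was 194 bp. All but the last lay close together. The median over all gaps of the run was 1225 bp, and the gap before the last peak was 15.4 kb. At this place 11 of the 13 overlapped a mutant peak at 36 hpf and 1 overlapped a mutant peak at 8 somites, the isolated last peak. The strongest peak of this run was chr15:14313807-14314052, with a percentile rank of 90.3 and a fold enrichment of 9.54, and the next was chr15:14299250-14299829, with 85.6 and 7.62. The 1 Mb window just before this run is the chromosome 15 window named above for its closed peaks.

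The run chr7:4118415-4168881 had a similar form, with 13 opened peaks in 50.5 kb and a median percentile rank of 82.6. Its ranks fell into a high and a low set. There were 8 peaks between 76.2 and 95.3 and 5 between 8.70 and 31.4. Of the strong peaks 7 overlapped a mutant peak at 36 hpf, and none of the weak ones did. A total of 3 WT 8-somite peaks lay between the opened peaks, and they count as closed by definition of the run. The third run, chr12:14212515-14429139, held 12 opened peaks over 217 kb, with a median rank of 49.1 and 4 overlaps with mutant peaks at 36 hpf. Its first 4 peaks were spread out. Its peaks 5 to 12 lay close together, 200.5 to 216.5 kb from its start, with percentile ranks from 3.58 to 90.9.

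**Figure D5:**
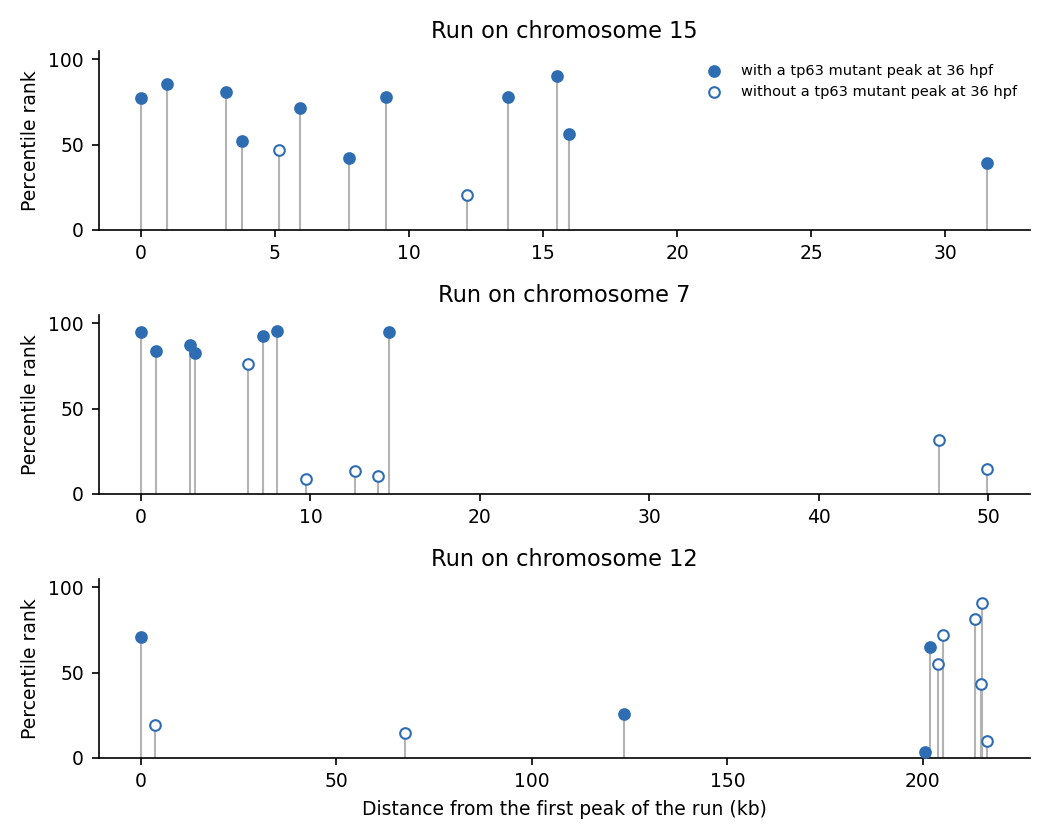
Percentile rank at 36 hpf (y axis, 100 is the strongest) of the opened peaks in the 3 longest opened runs, against distance from the first peak of the run (x axis, kb). Filled points overlap a *tp63*-/- peak at 36 hpf, which is so for 11 of 13 peaks on chromosome 15, 7 of 13 on chromosome 7 and 4 of 12 on chromosome 12.

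A segment of chromosome 22 near 8 Mb stood out after these values had been seen. Its 1 Mb window and the kept peak given below were named by the rule for named regions, and its runs were not. In the window chr22:7000001-8000000 both shares were high, with 30 of 48 8-somite peaks closed (62.5%) and 22 of 40 36 hpf peaks opened (55%). Within it, chr22:7485243-7698506 held 10 consecutive opened peaks in 213 kb with a median percentile rank of 76.5 and no WT 8-somite peak, and chr22:7822288-7956581 held 11 consecutive closed peaks in 134 kb and no WT 36 hpf peak. Of the 10 opened peaks in this run 1 overlapped a mutant peak at 36 hpf, against 11344 of all 25214 opened peaks. Of the 11 closed peaks 3 overlapped a mutant peak at 8 somites, against 15913 of all 37330 closed peaks. The kept peak with the second largest fall in rank, chr22:7779810-7780318, lies between these runs. Whether these peaks follow the stage or the individual embryos cannot be told apart, since the values of single embryos were not analysed here.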

How the data were processed

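ATAC-seq libraries of whole, deyolked embryos were aligned by the authors to GRCz10 (danRer10). The submitters' processing notes name Bowtie2 and SAMtools, and the peak caller of the ATAC-seq lists was not given in the sources used here. Both replicates of a group were combined by the authors into 1 list with an IDR of at most 0.1. Each deposited peak had a fold enrichment (a linear ratio), −log10 p-value and q-value columns and a summit offset.

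Peaks were matched by at least 1 bp and ranked within a list by −log10 p-value, then fold enrichment. The members and lists were chosen with earlier results of these data known. With 1 list per group no test between groups was possible. Regions named were the 5 highest-ranked closed and opened peaks on assembled chromosomes with no WT peak of the other stage within 1 kb, the 5 largest falls and rises in percentile rank among peaks with 1 partner, the 3 longest runs of each class, and the 3 highest and lowest 1 Mb windows with at least 40 peaks. Shares weighted to equal ranks give each rank decile its weight in the whole list. The gene and motif lists that had been prepared were not used here, because no GRCz10 annotation was at hand. Alternatives were an overlap of 50%, an IDR of at most 0.01, lists cut to equal length, a peak within 1 kb, ranking by fold enrichment, and omission of unplaced sequence and the long arm of chromosome 4.

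Python 3.11.15 with numpy 2.4.6, pandas 2.3.3, scipy 1.17.1 and matplotlib 3.10.9 was used. Matching was checked against bedtools 2.31.1, and the measures were tested on simulated data.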

Additional observations from a re-analysis of the deposited data

How the results depend on the processing

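The alternatives gave 38 values for the 7 main results, of which 28 lay outside the 95% counting interval of the main value and 10 inside it. Both neighbour differences, the only results here that could change sign, stayed above 0. When each peak of a pair had to be covered over 50% of its length, the share of 8-somite peaks closed went from 38.6% to 41.7%, the share of 36 hpf peaks opened from 29.8% to 33.5% and the median absolute rank shift from 12.5 to 12.3 points. With an IDR of at most 0.01 in every list these values were 33.3%, 30.2% and 12.9 points, and with lists of equal length 33.7%, 33.2% and 12.7 points. With a peak within 1 kb counted as present, 34.2% closed and 24.7% opened. Ranking by fold enrichment gave a median absolute shift of 12.7 points. The neighbour difference of closed peaks (8.10 points) was 7.27 with the 50% overlap, 6.75 with equal lists, 13.9 with the 1 kb rule, 6.26 at gaps of 5 to 50 kb, 5.18 at equal ranks and 2.13 for the tenth next peak. That of opened peaks (3.98 points) was 9.21 with the 1 kb rule, 2.96 at gaps of 5 to 50 kb, 2.69 at equal ranks and 1.03 for the tenth next peak. The 1 kb rule raises both by construction, since close neighbours share the same window. The share of closed peaks also closed in the mutant (30.8%) was 30.1% with the 50% overlap, 33.7% with the IDR of at most 0.01 and 37.6% with equal lists, and that of opened peaks (33.1%) was 30.5%, 42.6% and 37.9%. The shares of kept peaks and of all peaks were not computed under these alternatives. These values therefore do not give the distance between changed and kept peaks. Other causes of these changes were not tested. No paired analysis was possible because both replicates had been merged into 1 list per group, and for the same reason neither replicate could be left out.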
